A study of Mus musculus with 16 samples.

Results

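Fc gamma receptors are the proteins by which myeloid cells bind the constant part of IgG. The genes described here are Fcgr1, Fcgr2b, Fcgr3 and Fcgr4, which encode the 4 mouse Fc gamma receptors, Fcer1g, which encodes the signalling chain of the activating receptors, and Fcgrt, which encodes the heavy chain of the neonatal Fc receptor. They were chosen by name, and all 6 were found among the 20200 genes of the deposited table and among the 12031 genes tested. Fcgr1 (CD64) binds single IgG molecules with high affinity, Fcgr3 (CD16) and Fcgr4 (CD16-2) bind mainly immune complexes, and each of the 3 needs the common gamma chain, Fcer1g, whose ITAM recruits Syk once Src family kinases have phosphorylated it. Fcgr2b (CD32) is the inhibitory receptor, with an ITIM that recruits the phosphatase SHIP1. Fcgrt pairs with B2m inside cells and returns IgG and albumin from endosomes to the surface. Neutrophils and macrophages use these receptors to take up IgG-coated material.

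The RNA came from cells sorted out of the interface tissue between tendon graft and bone after ACL reconstruction (ACLR) in C57BL/6 mice, labelled as wild type on day 1. Per the methods these were 12-week-old males. The 4 populations were taken on days 1 and 14 after surgery, all as live, lineage-negative CD45+ cells. CD9+ macrophages were Ly6G- CD11b+ F4/80+ CD9+, and CX3CR1+ macrophages were Ly6G- CD11b+ F4/80+ CX3CR1+ CD9-. F4/80- myeloid cells were Ly6G- CD11b+ without F4/80, and neutrophils were CD11b+ Ly6G+. The study's flow cytometry described both neutrophils and F4/80+ macrophages as Ly6C+. Each of the 8 groups has 2 libraries, 16 in all, and cells of 5 to 7 mice were pooled for every library. The mice were too few for 16 separate pools, and the labels give the 4 populations of a day the same 2 mouse numbers, so same-numbered libraries of a day were taken as sorted from 1 pool. Both libraries of a group thus came from different pools. For each gene, the spread behind the p-values was estimated over all 8 groups together. The main fit took the 16 libraries as independent, and the pairs within a day entered only in an alternative fit. For a single value an exact permutation test of 2 libraries against 2 cannot give a two-sided p under 0.333. In the study's staining protocol the cells were first incubated with antibodies to CD16 and CD32, the products of Fcgr3 and Fcgr2b, and CD64 was stained but was not part of the sort.

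Fcgr2b, Fcgr4, Fcgr3 and Fcer1g lie near each other on chromosome 1 of mm10. Fcgr2b runs from 170958617 to 170976547, Fcgr4 from 171018920 to 171029761, Fcgr3 from 171051174 to 171064935 and Fcer1g from 171229572 to 171234365, all on the minus strand except Fcgr4. Fcgr1 is on chromosome 3 (96282909 to 96293969, minus strand) and Fcgrt on chromosome 7 (45092990 to 45103851, minus strand). Reads over the exons of each gene were counted. Fcgr3 and Fcgr2b are paralogs, and 166 of the 1733 distinct 50-base stretches in the Gencode transcripts of Fcgr3 (9.58%) also occur in those of Fcgr2b, where they make up 2.92%. No such stretch was shared between any other pair of the 6 genes. Fcgr2b also shares 155 exon bases with an antisense gene, Gm38204, and whether the counting used strand is not given in the sources used here.

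The RefSeq sequences upstream of Fcgr1, Fcgr4 and Fcer1g (GRCm38.p6) are shown because Fcgr1 and Fcgr4 were highest in different populations and Fcer1g is the chain that both use. Each ends just before the first base that Gencode annotates as exon and is written 5′ to 3′ on the strand of the gene. They are chr3:96293970-96294219 for Fcgr1, chr1:171018676-171018919 for Fcgr4 and chr1:171234366-171234599 for Fcer1g. Capitals mark matches on either strand to the IRF element (2 copies of GAAA, 2 bases apart, bound by IRF family factors) or to GAGGAA (a core bound by PU.1, read as TTCCTC on the other strand).
Fcgr1: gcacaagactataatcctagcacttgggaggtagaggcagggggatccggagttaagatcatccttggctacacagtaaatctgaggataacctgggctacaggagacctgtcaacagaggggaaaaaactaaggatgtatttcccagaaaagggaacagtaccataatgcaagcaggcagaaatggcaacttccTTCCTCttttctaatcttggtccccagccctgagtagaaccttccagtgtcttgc
Fcgr4: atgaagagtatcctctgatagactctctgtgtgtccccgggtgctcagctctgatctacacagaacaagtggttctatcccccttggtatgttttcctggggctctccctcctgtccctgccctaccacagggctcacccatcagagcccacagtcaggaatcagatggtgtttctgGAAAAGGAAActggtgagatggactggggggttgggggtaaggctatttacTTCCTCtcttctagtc
Fcer1g: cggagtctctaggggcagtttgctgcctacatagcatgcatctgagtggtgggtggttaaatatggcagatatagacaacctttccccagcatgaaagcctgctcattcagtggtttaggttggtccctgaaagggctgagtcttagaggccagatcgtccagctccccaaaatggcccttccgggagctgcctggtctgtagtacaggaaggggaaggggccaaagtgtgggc
Both motifs were searched in the 250 bases before the RefSeq start of each gene. Fcgr1 held GAGGAA at position -55 from the start, and Fcgr4 held the IRF element at position -73 and GAGGAA at position -22. The PU.1 core was also present before both RefSeq starts of Fcgr3, and the windows of Fcgr2b, Fcer1g and Fcgrt held neither. Of all 32851 RefSeq promoter windows of that length, 2.98% held the IRF element and 23.3% GAGGAA, and a match is a description of letters, not of binding.

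The libraries held between 9233952 and 19814119 counts on genes. Those of day 1 held 10587857 to 19814119 and those of day 14 held 9233952 to 12721779. Values are given as CPM (counts as a share of the TMM-scaled library size), and a gene is called when the adjusted p from edgeR's quasi-likelihood test is under 0.05 and the absolute log2 fold change is at least 1. The labels were set against marker genes. The sum of 7 macrophage and monocyte markers was 3050 to 3890 CPM in CX3CR1+ and 2360 to 3140 in day 1 CD9+ libraries but 1190 to 1750 in day 14 CD9+ libraries. In neutrophil libraries the same sum was 2550 to 2920 on day 1 and 420 to 436 on day 14, and in F4/80- libraries it was 512 to 636. Most of the day 1 sum in neutrophil libraries came from a single marker, Cd14. The sum of 7 neutrophil markers was 16200 to 27300 in neutrophils against 4450 to 5740 in F4/80- cells. Eosinophil markers, 6 of 6 of them listed, summed to 6470 to 10500 CPM in day 14 CD9+ libraries, 543 to 596 in those of day 1 and at most 123 elsewhere. The population names used here are those of the sort gates. In day 14 CD9+ libraries the eosinophil sum was above the macrophage and monocyte sum, so macrophage is there the name of the gate only. Mast cell and basophil markers summed to 800 to 1360 in F4/80- cells, 70.2 to 294 in CD9+ cells and at most 2.57 in CX3CR1+ cells. The CD9+ libraries of day 1 were the least alike (Pearson r of log2 CPM across genes 0.936, against 0.976 to 0.988 in the other groups). Their neutrophil markers were at 2370 and 767 CPM. In sorted bulk RNA, fewer cells of a type and less RNA per cell cannot be told apart, and the part of these other cells in the results below was not tested.

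Measured per kilobase of exon, Fcer1g was the most abundant of the 6 genes and Fcgr3 the next in all 8 groups. Fcer1g lay between 320 CPM per kb in F4/80- cells on day 14 and 984 in neutrophils on day 1, and Fcgr3 between 62.2 and 311 CPM per kb in the same groups. The genes behind them differed between populations. In both kinds of macrophage on day 1, Fcgr1 came next with 52.9 CPM per kb in CD9+ and 55.6 in CX3CR1+ cells, ahead of Fcgr2b with 44.9 and 34.4. On day 14 Fcgr2b, with 29.4 and 24.5 CPM per kb, was ahead of Fcgr1, with 14.1 and 19.3. In neutrophils the next gene was Fcgr4, with 69.6 CPM per kb on day 1 and 61.6 on day 14, while Fcgr1 had 2.16 and 0.199. Fcgr2b has long exons (5790 bases in all, against 874 for Fcer1g), so its place in this order depends on the length it is given.

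**Figure D1:**
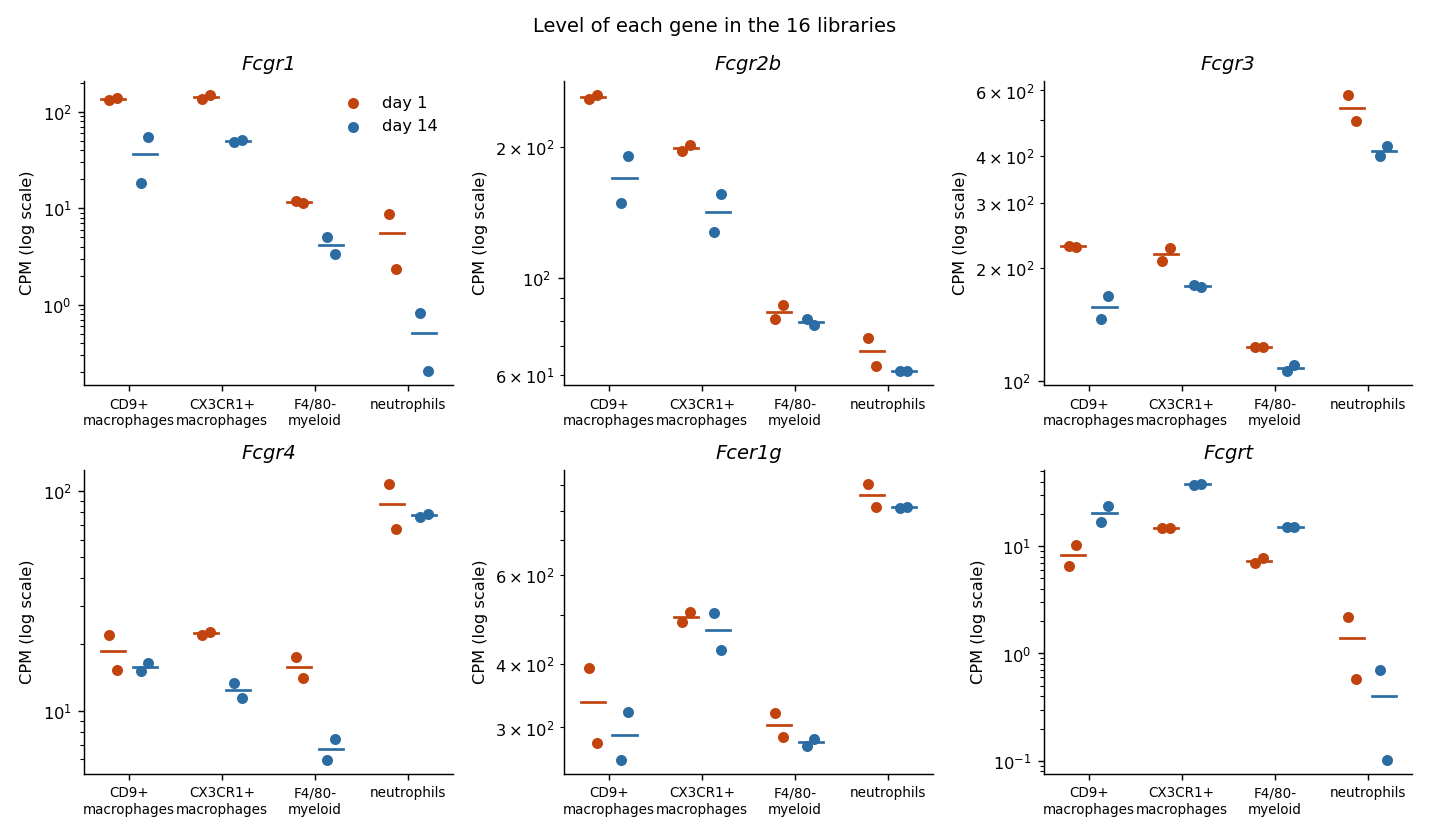
Level of each gene in every library, as CPM on a log axis, by sorted population, with day 1 in red, day 14 in blue, 1 point per library and a line at the mean of the 2 libraries. Fcgr3, Fcgr4 and Fcer1g stand highest in neutrophils, Fcgr1 and Fcgr2b in the F4/80+ macrophages, and Fcgrt in CX3CR1+ macrophages on day 14.

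From day 1 to day 14, 2 of the 6 genes were called in CD9+ macrophages (8.16% of all tested genes were), 2 in CX3CR1+ macrophages (5.89%), 1 in F4/80- cells (3.31%) and 1 in neutrophils (14.2%). The called genes were Fcgr1, lower on day 14 in 3 populations, Fcgrt, higher in both kinds of macrophage, and Fcgr4, lower in F4/80- cells. Fcer1g was called in none. Between CD9+ and CX3CR1+ macrophages no member was called on either day, where 8.15% of tested genes were called on day 1 and 14.2% on day 14. With edgeR's unadjusted p under 0.05, the members of day 1 would be Fcgr2b, Fcer1g and Fcgrt and those of day 14 Fcer1g and Fcgrt, and DESeq2 called none on either day. Scaling by library size only would call Fcgrt lower in CD9+ macrophages on day 1, at -1.05 (edgeR, adjusted p = 0.046).

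Against neutrophils, all 6 genes were called in CD9+ macrophages on both days (of all tested genes, 49.6% and 49.2% were), 5 in CX3CR1+ macrophages on both days (50.9% and 48%) and 4 on day 1 and 5 on day 14 in F4/80- cells (48.8% and 48.1%). In CD9+ macrophages against F4/80- cells, 2 members were called on day 1 (15.3% of tested genes) and 3 on day 14 (7.6%). In CX3CR1+ macrophages against F4/80- cells, 3 were called on day 1 (21%) and 2 on day 14 (21.3%). All of these members were higher in the macrophages.

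**Figure D2:**
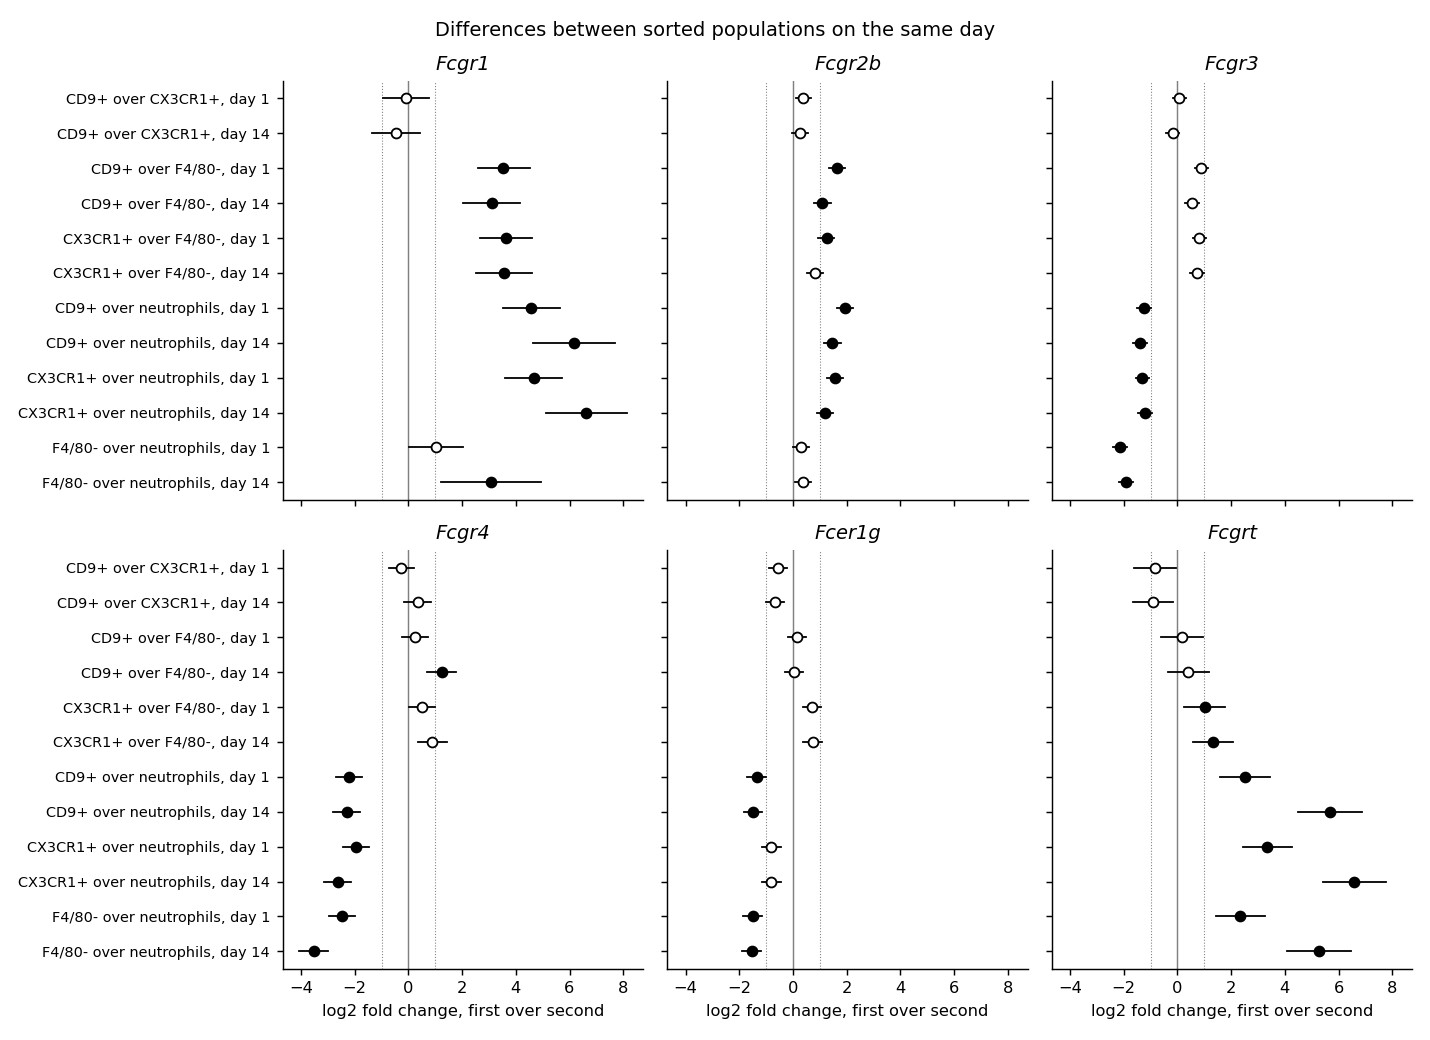
Log2 fold changes between populations on the same day for each gene, with 95% confidence intervals from edgeR as horizontal lines; filled points are called genes, and dotted lines mark a log2 fold change of 1 in either direction. All points for Fcgr1, Fcgr2b and Fcgrt against neutrophils are above 0 and all points for Fcgr3, Fcgr4 and Fcer1g are below it.

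Fcgr1, the high-affinity receptor, was at its highest in day 1 macrophages and fell by day 14. CD9+ macrophages had 135 and 139 CPM on day 1, then 18.4 and 54.6 on day 14. CX3CR1+ macrophages had 137 and 151 CPM, then 48.4 and 51.3. Both day 1 libraries were above both day 14 libraries in each population, and the day 14 CD9+ libraries were far apart themselves. Of all tested genes, 51.6% in CD9+ and 62.9% in CX3CR1+ macrophages had no overlap between days, in either direction. The log2 fold change was -1.91 ± 0.42 (SE) in CD9+ (edgeR, adjusted p = 0.0068) and -1.53 ± 0.42 in CX3CR1+ macrophages (edgeR, adjusted p = 0.025). The 2 changes were -0.38 apart, with a 95% confidence interval from -1.62 to 0.86.

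In CD9+ cells the sum of the 7 macrophage and monocyte markers fell with Fcgr1, from 2360 and 3140 CPM on day 1 to 1190 and 1750 on day 14. The day 14 library with 18.4 CPM of Fcgr1 had the lower sum of macrophage markers, 1190 against 1750, and also the lower sum of eosinophil markers, 6470 against 10500. Adgre1 is 1 of the 7 macrophage and monocyte markers and encodes F4/80, the protein on which these cells were sorted. Unlike the sum, Adgre1 did not fall. It had 120 and 155 CPM in the CD9+ libraries of day 1 and 143 and 216 on day 14. CX3CR1+ libraries had macrophage markers at 3570 and 3890 CPM on day 1 and 3050 and 3290 on day 14. Their eosinophil markers were at or under 89.9, and the fold of Fcgr1 was 2.89 against 3.75 in CD9+ cells. The part of other cells in the change of Fcgr1 was not tested.

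In the other populations Fcgr1 was low. It had 11.9 and 11.5 CPM in F4/80- cells on day 1 and 5.07 and 3.34 on day 14, a log2 fold change of -1.47 that missed the threshold (edgeR, adjusted p = 0.099). Neutrophils had 8.84 and 2.34 CPM on day 1 (124 and 28 counts) and 0.824 and 0.204 on day 14 (7 and 2 counts). Fcgr1 thus fell in neutrophils too, by 3.5 on the log2 scale (SE 0.84, edgeR, adjusted p = 0.0057), from few counts. Ccr2, a monocyte marker, had 66.1 and 47.4 CPM in the same neutrophil libraries on day 1 and 15.7 and 7.66 on day 14. The 7 macrophage and monocyte markers together summed to 2550 and 2920 CPM in them on day 1 and to 436 and 420 on day 14, with Cd14 at 1930 and 2300, then 240 and 224, and their part in the change of Fcgr1 was not tested. The change of Fcgr1 in neutrophils was not shown to differ from that in any other population (interaction terms of 1.6, 1.97 and 2.04, edgeR, adjusted p from 0.24 to 0.35).

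Between populations, Fcgr1 had the widest range of the receptors. CD9+ and CX3CR1+ macrophages differed by -0.08 on the log2 scale on day 1, with an interval from -0.93 to 0.78, and by -0.45 on day 14, from -1.35 to 0.44. Against F4/80- cells Fcgr1 was 11.7-fold higher in CD9+ and 12.3-fold higher in CX3CR1+ macrophages on day 1 (edgeR, adjusted p = 4.4e-05 and 1.5e-05) and 8.6-fold and 11.8-fold higher on day 14 (0.00054 and 4.2e-05). Against neutrophils the fitted folds were 24 and 25.2 on day 1 and were 72.4 and 99.1 by day 14, the latter against 7 and 2 counts in the neutrophil libraries. Leaving out single libraries gave log2 differences of the macrophages from neutrophils of 3.95 to 5.94 on day 1 and, by day 14, 5.2 to 7.87. F4/80- cells differed from neutrophils by 1.04 on day 1 (edgeR, adjusted p = 0.065) and by 3.08 on day 14 (adjusted p = 0.0059). The day 1 difference was called, at 2.32, without the first neutrophil library (edgeR, adjusted p = 0.0037), at 1.57 with scaling by library size only (0.0083) and at 1.01 in the fit without CD9+ libraries (0.023). The day 14 difference was not called, at 2.35, without the second neutrophil library (edgeR, adjusted p = 0.069).

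Some calls of Fcgr1 over time were lost with fewer libraries. The CD9+ value was -1.36 without the first day 14 library (edgeR, adjusted p = 0.068) and -2.91 without the second. In CX3CR1+ macrophages each omission left the value between -1.64 and -1.51 and raised the adjusted p to between 0.073 and 0.15, and DESeq2 gave -1.55 (adjusted p = 0.084). In neutrophils the value was -2.22 (adjusted p = 0.096) without the first day 1 library and -2.77 (0.079) without the second day 14 library. Without the second day 14 CD9+ library, Fcgr1 would be called lower in CD9+ than in CX3CR1+ macrophages on day 14, at -1.41 (edgeR, adjusted p = 0.038), and fits without neutrophil or without CD9+ libraries called the decrease in F4/80- cells, at -1.45 (adjusted p = 0.049 and 0.027).

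**Figure D3:**
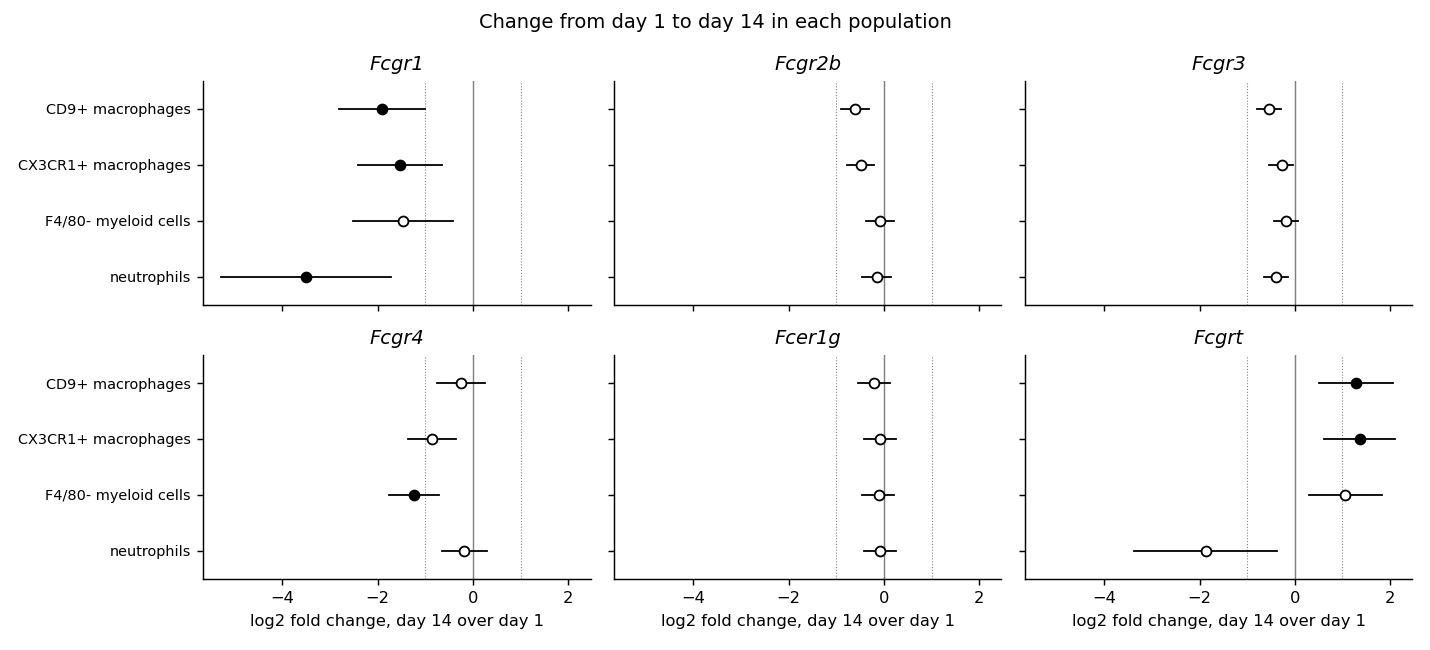
Log2 fold change from day 1 to day 14 of each gene in each population, with 95% confidence intervals from edgeR; filled points are called genes. Fcgr1 lies between -3.5 and -1.47, Fcer1g between -0.21 and -0.08, and Fcgrt between 1.05 and 1.36 in the 3 populations other than neutrophils.

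Fcgr3, the low-affinity receptor that neutrophils, macrophages and mast cells share, was highest in neutrophils. It had 584 and 496 CPM there on day 1 and 400 and 426 on day 14. CD9+ macrophages had 230 and 228 CPM on day 1 and 146 and 169 on day 14, CX3CR1+ macrophages 209 and 227, then 180 and 178, and F4/80- cells 123 and 123, then 106 and 110. The ranges of neutrophils did not overlap with those of any other population on either day. In each of these comparisons, 77.2% to 88.9% of all tested genes had no overlap. Fcgr3 was lower than in neutrophils by 2.36-fold in CD9+ macrophages, 2.48-fold in CX3CR1+ macrophages and 4.38-fold in F4/80- cells on day 1 (edgeR, adjusted p = 3.4e-07, 1.6e-07 and 2.8e-09). On day 14 the folds were 2.62, 2.31 and 3.81 (edgeR, adjusted p = 1e-07, 3.5e-07 and 4.7e-09).

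Over time Fcgr3 was below its day 1 level in all 4 populations, by log2 fold changes of -0.54 in CD9+ macrophages, -0.28 in CX3CR1+ macrophages, -0.19 in F4/80- cells and -0.39 in neutrophils. The values for CD9+ macrophages and neutrophils passed on the adjusted p (edgeR, 0.0064 and 0.022) but not on the fold change. CD9+ and CX3CR1+ macrophages differed by 0.07 on day 1, with an interval from -0.18 to 0.32, and by -0.18 on day 14, from -0.43 to 0.07. The distance between macrophages and neutrophils depends on scaling. With scaling by library size only, the day 1 values against neutrophils were -0.96 in CD9+ and -0.83 in CX3CR1+ macrophages and the day 14 values -0.91 and -0.75, under the fold change threshold, while the median over all tested genes in these comparisons moved from between 0.06 and 0.13 to between 0.35 and 0.59.

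Fcgr4, which binds IgG2a and IgG2b complexes, was also highest in neutrophils, with a wider gap to the other populations. Neutrophils had 108 and 66.9 CPM on day 1 and 76 and 78.8 on day 14. CD9+ macrophages had 22 and 15.3 CPM on day 1 and 15.2 and 16.4 on day 14, and CX3CR1+ macrophages 22.1 and 22.9, then 13.4 and 11.4. F4/80- cells had 17.5 and 14.1 CPM on day 1 and 5.96 and 7.44 on day 14. Every neutrophil library was above every other library, where 77.2% to 88.9% of all tested genes had no overlap in a single comparison with neutrophils. The log2 differences from neutrophils were -2.22 in CD9+ macrophages, -1.96 in CX3CR1+ macrophages and -2.47 in F4/80- cells on day 1, and -2.29, -2.64 and -3.53 on day 14 (edgeR, adjusted p from 1.6e-08 to 1.9e-06).

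Fcgr4 fell over time in F4/80- cells, by 1.24 on the log2 scale (SE 0.24, edgeR, adjusted p = 0.0068). In CX3CR1+ macrophages the value was -0.86, past the adjusted p (edgeR, 0.024) but under the fold change threshold, and in CD9+ macrophages and neutrophils it was -0.25 and -0.18, with overlapping libraries (edgeR, adjusted p = 0.5 and 0.58). The change in F4/80- cells differed from that in neutrophils by -1.07 (interaction term, edgeR, adjusted p = 0.049). On day 14 Fcgr4 was also 2.36-fold higher in CD9+ macrophages than in F4/80- cells (edgeR, adjusted p = 0.0035). In F4/80- cells the sum of mast cell and basophil markers was 940 and 800 CPM on day 1 and 1360 and 1290 on day 14. The part of these cells was not tested. The decrease in F4/80- cells was not called without the first library of either day (edgeR, -1.1 and -1.11, adjusted p = 0.072 and 0.1), and the difference from neutrophils was lost in 7 of 8 omissions of a library, all but that of the first day 1 neutrophil library, with values from -1.23 to -0.76. Without the first day 14 F4/80- library the difference between CD9+ macrophages and F4/80- cells was 1.1 (edgeR, adjusted p = 0.061).

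Fcer1g, the signalling chain, was highest in neutrophils and was not called over time in any population. Neutrophils had 906 and 813 CPM on day 1 and 812 and 816 on day 14. CX3CR1+ macrophages had 483 and 507 CPM, then 505 and 427, CD9+ macrophages 393 and 280, then 259 and 322, and F4/80- cells 320 and 287, then 276 and 285. The log2 fold changes from day 1 to day 14 were -0.21, -0.09, -0.11 and -0.08 in CD9+ macrophages, CX3CR1+ macrophages, F4/80- cells and neutrophils, with confidence limits no farther from 0 than -0.55 and 0.26 (edgeR, adjusted p from 0.4 to 0.79). In the same populations Fcgr1 had changed by -1.91, -1.53, -1.47 and -3.5.

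Between populations, Fcer1g was 2.55-fold lower in CD9+ macrophages and 2.83-fold lower in F4/80- cells than in neutrophils on day 1 (edgeR, adjusted p = 3.1e-06 and 1e-06) and 2.8-fold and 2.91-fold lower on day 14 (1.2e-06 and 8.4e-07). CX3CR1+ macrophages were nearer, at -0.8 on both days, under the fold change threshold (edgeR, adjusted p = 0.00039 on both). Scaling by library size only put F4/80- cells under that threshold too on day 1, at -0.98. Fcer1g also was lower in CD9+ than in CX3CR1+ macrophages by values under that threshold, -0.56 on day 1 (edgeR, adjusted p = 0.028) and -0.68 on day 14 (adjusted p = 0.0049). Tyrobp, which encodes the related ITAM chain DAP12, had the order of Fcer1g, with 720 ± 167 CPM (SD, n = 2) in neutrophils, 358 ± 11.6 in CX3CR1+ macrophages, 251 ± 28.7 in CD9+ macrophages and 194 ± 29.9 in F4/80- cells on day 1. It was not called over time in any population (log2 fold changes from -0.42 to 0.04).

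Fcgr2b, the inhibitory receptor, was found in all populations and was highest in CD9+ and CX3CR1+ macrophages. CD9+ macrophages had 257 and 263 CPM on day 1 and 149 and 191 on day 14, and CX3CR1+ macrophages 196 and 202, then 128 and 156. F4/80- cells had 80.6 and 86.9 CPM on day 1 and 80.7 and 78.1 on day 14, and neutrophils 73.2 and 62.9, then 61.4 and 61.3. The macrophage libraries were all above those of the other populations of the same day. In each of these comparisons, 59% to 87.9% of all tested genes had no overlap. Against neutrophils Fcgr2b was 3.82-fold higher in CD9+ and 2.93-fold higher in CX3CR1+ macrophages on day 1 (edgeR, adjusted p = 2.6e-08 and 1.6e-07) and 2.78-fold and 2.31-fold higher on day 14 (3.2e-07 and 2.2e-06). Against F4/80- cells it was 3.11-fold and 2.38-fold higher on day 1 (edgeR, adjusted p = 1e-06 and 4.4e-06) and 2.14-fold higher in CD9+ macrophages on day 14 (6.2e-05), while CX3CR1+ macrophages differed by 0.84 on the log2 scale.

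The day 14 levels of Fcgr2b were below those of day 1 by log2 fold changes of -0.61 in CD9+ and -0.49 in CX3CR1+ macrophages, which passed on the adjusted p (edgeR, 0.0069 and 0.028) but not on the fold change. In F4/80- cells and neutrophils the values were -0.08 and -0.15, with intervals from -0.37 to 0.22 and from -0.45 to 0.15. F4/80- cells and neutrophils differed little in Fcgr2b, by 0.3 on day 1 and 0.37 on day 14. CD9+ macrophages were above CX3CR1+ macrophages by 0.39 on day 1 and 0.26 on day 14 (edgeR, adjusted p = 0.069 and 0.18). Without the second day 14 library, the difference between CD9+ macrophages and F4/80- cells on day 14 was 0.93, under the fold change threshold. B cells also carry this receptor. The 6 B and plasma cell markers summed to 37.6 to 85.2 CPM in CD9+ macrophages on day 1 and 155 to 190 on day 14. In F4/80- cells the sum was 69.2 to 98.4 on day 1 and 80.1 to 148 on day 14. It was at most 19.9 in CX3CR1+ macrophages and 12.5 in neutrophils. The part of B cells was not tested.

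The ratio of an activating receptor to Fcgr2b is taken within 1 library, so scaling of the libraries hardly enters. A prior count of 2 (scaled to library size) was first added to each gene. CPM were not divided by exon length, which is 5790 bases for Fcgr2b, 2589 for Fcgr1, 1736 for Fcgr3 and 1256 for Fcgr4. The ratios thus compare groups and do not tell which receptor is more abundant. Per kilobase, day 1 CD9+ macrophages had 132 CPM of Fcgr3 and 52.9 of Fcgr1 against 44.9 of Fcgr2b. Fcgr3 to Fcgr2b was 7.92 in neutrophils on day 1 and 6.73 on day 14, as a ratio of CPM averaged on the log2 scale. In the other populations it lay between 0.88 in CD9+ macrophages on day 1 and 1.47 in F4/80- cells on day 1. Fcgr4 to Fcgr2b was 1.25 and 1.26 in neutrophils on days 1 and 14 and between 0.0711 and 0.189 elsewhere. For both ratios, every neutrophil library was above all other libraries, and no test was run on these ratios.

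Fcgr1 to Fcgr2b ran the other way. On day 1 it was 0.722 in CX3CR1+ and 0.527 in CD9+ macrophages, 0.141 in F4/80- cells and 0.0693 in neutrophils. On day 14 it was 0.354, 0.189, 0.0537 and 0.00949 in the same order. The day 14 neutrophil ratio of Fcgr1 depends on the prior count, with log2 values of -5.99 and -7.45 in the 2 libraries with it and -6.22 and -8.23 without. On the log2 scale it was lower on day 14 in every population, from -0.92 ± 0.00707 (SD, n = 2) to -2.4 ± 0.856 in CD9+ macrophages and from -0.47 ± 0.0707 to -1.5 ± 0.141 in CX3CR1+ macrophages, with no overlap between days within a population. Fcgr3 to Fcgr2b in the same macrophages went from -0.18 to -0.1 and from 0.13 to 0.34.

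**Figure D4:**
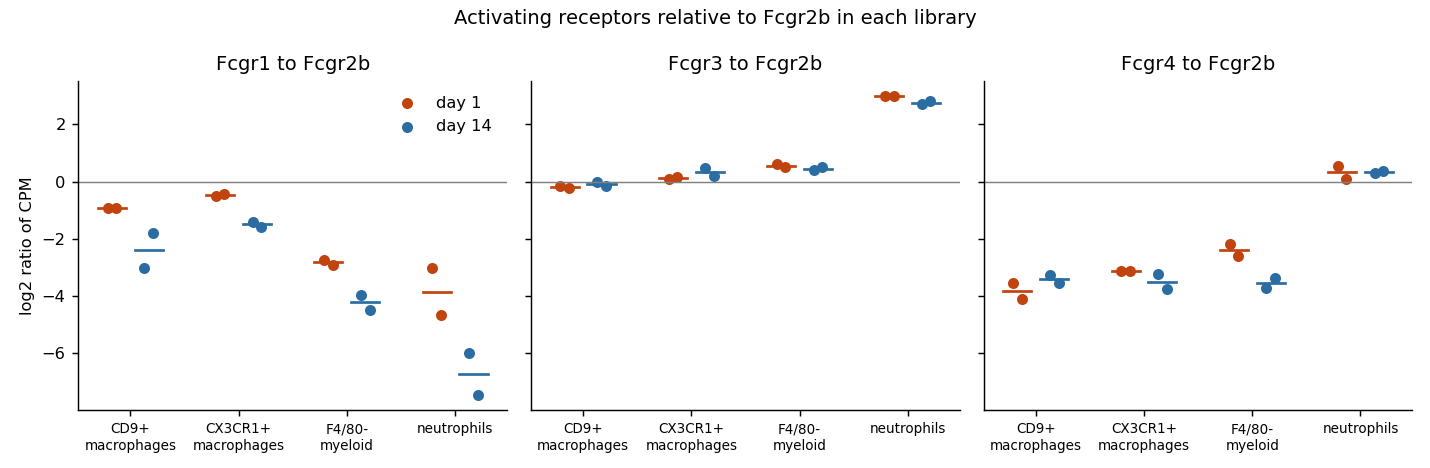
Log2 ratio of the CPM of Fcgr1, Fcgr3 and Fcgr4 to that of Fcgr2b in each library, by population and day. Points are libraries and short lines are means of 2 libraries. The value 0 marks equal CPM, which are not corrected for exon length. Neutrophils lie near 3 for Fcgr3 and above 0 for Fcgr4, where the other populations lie near 0 and below -2, and Fcgr1 is lower on day 14 in every population.

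Fcgrt, the neonatal Fc receptor heavy chain, was the gene of the 6 that rose. CX3CR1+ macrophages had 14.8 and 14.7 CPM on day 1 and 37.3 and 38.3 on day 14, and CD9+ macrophages 6.47 and 10.2, then 16.8 and 23.5. F4/80- cells had 6.93 and 7.69 CPM on day 1 and 15.1 and 15.2 on day 14. In these 3 populations both day 14 libraries were above both day 1 libraries. Of all tested genes, 62.9%, 51.6% and 61.4% had no overlap between days, in either direction, in these populations. The log2 fold change was 1.36 ± 0.35 (SE) in CX3CR1+ (edgeR, adjusted p = 0.018) and 1.29 ± 0.37 in CD9+ macrophages (adjusted p = 0.026), and 1.05 ± 0.36 in F4/80- cells, where it was not called (adjusted p = 0.1). DESeq2, with an adjusted p of 0.024, and the fits without neutrophil or CD9+ libraries did call it there.

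Neutrophils had almost no Fcgrt, with 2.21 and 0.584 CPM on day 1 (31 and 7 counts) and 0.707 and 0.102 on day 14 (6 and 1 counts). The libraries of the 2 days overlapped, and the log2 fold change of -1.87 was not called by edgeR (adjusted p = 0.059) but was called by DESeq2 (-1.9, adjusted p = 0.019) and by edgeR without the second day 1 library (-2.49, adjusted p = 0.01) or the first day 14 library (-3.7, adjusted p = 0.032). Without the first day 1 library it was -0.59, the value nearest to 0. The changes in CD9+ macrophages, CX3CR1+ macrophages and F4/80- cells differed from that in neutrophils by 3.16, 3.23 and 2.92 (interaction terms, edgeR, adjusted p = 0.018, 0.013 and 0.026), while 8.2%, 8.85% and 7.63% of all tested genes were called in these 3 comparisons. Against neutrophils Fcgrt was 5.71-fold higher in CD9+ macrophages, 10.2-fold higher in CX3CR1+ macrophages and 5.07-fold higher in F4/80- cells on day 1 (edgeR, adjusted p = 0.00013, 5.8e-06 and 0.00021). The day 14 log2 differences were 5.68, 6.58 and 5.27, against 6 and 1 counts in the neutrophil libraries, and leaving out single libraries moved them between 4.41 and 8.41 and those of day 1 between 1.72 and 4.64. It was also 2.49-fold higher in CX3CR1+ macrophages than in F4/80- cells on day 14 (edgeR, adjusted p = 0.0081), and 2.02-fold higher on day 1 (0.036), where other scalings gave log2 values of 0.97 to 0.98, under the threshold. Leaving out 1 library left the day 1 value at 0.96 to 1.12, with an adjusted p of 0.098 to 0.15, and the day 14 value at 1.3 to 1.32, with an adjusted p of 0.062 to 0.063 for either F4/80- library (edgeR).

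B2m, the partner of Fcgrt, was far more abundant and was not called over time in any population, with log2 fold changes from -0.31 to 0.53. It had 767 ± 155 CPM (SD, n = 2) in neutrophils and 661 ± 7.54 in CX3CR1+ macrophages on day 1, so the low Fcgrt of neutrophils stood beside a high level of its partner. The calls of Fcgrt were easily lost. In CX3CR1+ macrophages each omission of a library left values of 1.3 to 1.34 with an adjusted p of 0.11 to 0.13 (edgeR), in CD9+ macrophages 3 of 4 omissions lost the call, with values from 0.96 to 1.48 (adjusted p from 0.059 to 0.18), and each of the 3 interaction terms was lost without the first day 1 or the second day 14 neutrophil library, with values from 1.64 to 2.37. The term for CD9+ macrophages was also lost without their second day 14 library (2.9, edgeR, adjusted p = 0.058), and that for F4/80- cells without any 1 of their 4 libraries (2.84 to 3, adjusted p from 0.053 to 0.067).

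Of the 6 interaction comparisons, the 3 that involve no neutrophils called none of the 6 genes (edgeR, background 2.31% for CD9+ against CX3CR1+ macrophages, 1.69% for CD9+ macrophages against F4/80- cells and 1.05% for CX3CR1+ macrophages against F4/80- cells). DESeq2 called none in these 3 either. At an unadjusted p under 0.05 edgeR would call Fcgr2b (-0.54) and Fcgr4 (0.99) between CD9+ macrophages and F4/80- cells and no member in the other two.

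The remaining genes of the pathway were described as lists, written with earlier results of these data known. Of 73 genes, 62 were tested. From day 1 to day 14, 0 were called higher and 5 lower in CD9+ macrophages, 0 and 6 in CX3CR1+ macrophages, 1 and 4 in F4/80- cells, and 1 and 11 in neutrophils. Of all tested genes, 4.74% were called higher and 3.42% lower in CD9+ macrophages, 2.44% and 3.46% in CX3CR1+ macrophages, 1.13% and 2.18% in F4/80- cells and 3.75% and 10.5% in neutrophils. The median log2 fold change of the 62 genes was -0.12, 0.02, 0.03 and -0.07 in these populations, against 0.02, 0.04, 0.01 and 0.03 over all tested genes. No adaptor or effector of the 22 listed was called over time in CD9+ macrophages, CX3CR1+ macrophages or F4/80- cells, and 5 were lower in neutrophils, among them Lat (-3.91) and Lat2 (-1.5).

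The other receptors that pair with the Fcer1g chain held 3 of the called genes in every population. Of 6 tested, the C-type lectins Clec4e (Mincle), Clec4d (MCL) and Clec4n (Dectin-2), which bind microbial glycolipids and mannans, fell in each of the 4 populations. Clec4e went from 246 ± 21.2 to 102 ± 18.3 CPM (SD, n = 2) in CD9+ macrophages, from 316 ± 40.9 to 134 ± 3.62 in CX3CR1+ macrophages and from 1730 ± 722 to 538 ± 10.5 in neutrophils. Its log2 fold changes were -1.27, -1.24, -1.2 and -1.68 in CD9+ macrophages, CX3CR1+ macrophages, F4/80- cells and neutrophils (edgeR, adjusted p from 3.7e-05 to 0.0043). Clec4n fell too, with log2 fold changes of -1.45, -1.82, -2.91 and -2.87 in the same order (edgeR, adjusted p from 3.6e-06 to 0.0018), and so did Clec4d, with -1.92, -2.33, -2.71 and -1.42 (adjusted p from 9.9e-05 to 0.001). Fcer1g itself, which all of these receptors need, had log2 fold changes from -0.21 to -0.08.

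Fcer1a and Ms4a2, the chains of the high-affinity IgE receptor, which were named after their values had been seen, were found where mast cell and basophil markers were, with 23.6 ± 6.45 and 131 ± 34.6 CPM (SD, n = 2) in F4/80- cells on day 1. In day 1 CD9+ macrophages Fcer1a had 80 counts in the first library and 4 in the second, and in CX3CR1+ libraries of both days it had at most 2 counts.

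The kinases Syk and Lyn and the phosphatases Inpp5d and Ptpn6, which act on Fc receptors, had their highest day 1 levels in neutrophils. Syk had 1090 ± 79.2 CPM (SD, n = 2) in neutrophils on day 1, against 483 ± 9.49 in CD9+ macrophages, 539 ± 23.5 in CX3CR1+ macrophages and 352 ± 3.55 in F4/80- cells. It was called lower than in neutrophils in all 3 on day 1 (log2 fold changes of -1.17, -1.01 and -1.63, edgeR, adjusted p from 1.5e-08 to 1.3e-06) and was not called over time in any population. Lyn, which can phosphorylate both ITAM and ITIM, was 513 ± 5.94 CPM in CX3CR1+ and 202 ± 7.48 in CD9+ macrophages on day 14, a log2 difference of -1.35 (edgeR, adjusted p = 3.9e-07). The difference on day 1 was -0.55, under the fold change threshold.

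On the inhibitory side, Inpp5d, which encodes SHIP1, had 564 ± 23.8 CPM (SD, n = 2) in neutrophils, 361 ± 117 in CD9+ macrophages, 406 ± 4.55 in CX3CR1+ macrophages and 225 ± 2.72 in F4/80- cells on day 1. Only the difference between F4/80- cells and neutrophils on day 1 was called among its differences from neutrophils (-1.32, edgeR, adjusted p = 5.8e-06). Ptpn6 (SHP-1) was highest in neutrophils with 1150 ± 36.7 CPM on day 1. Of the 8 other ITIM receptors tested, 0 were higher and 4, 3 and 6 were lower in CD9+ macrophages, CX3CR1+ macrophages and F4/80- cells than in neutrophils on day 1, where 21.3%, 22.9% and 21.5% of all tested genes were lower. On day 14 there were 5, 5 and 6 lower (19.9%, 20.4% and 20.3% of tested genes), with 0 higher. Pirb, an inhibitory receptor for MHC class I, was among them in CD9+ macrophages (log2 differences of -1.17, then -2.38, edgeR, adjusted p = 1.8e-06 and 2.2e-09), which sets it apart from Fcgr2b in direction. Pirb also fell over time in CD9+ macrophages and F4/80- cells, by 1.04 and 1.3 on the log2 scale (edgeR, adjusted p = 0.00012 and 4.6e-05).

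Across the 16 libraries 5 of the genes formed 2 sets. The Pearson correlation of log2 CPM was 0.943 between Fcgr3 and Fcgr4, 0.911 between Fcgr3 and Fcer1g, 0.892 between Fcgr4 and Fcer1g and 0.923 between Fcgr1 and Fcgr2b, while those between the sets lay from -0.433 to -0.254. Fcgrt correlated with Fcgr1 at 0.746 and with Fcgr4 at -0.834. The 16 points fall into 4 sorted populations with neutrophils apart from the rest, so these values describe mainly the order of the populations. By the same measure, the genes closest to Fcgr1 were Msr1 (0.983), Ms4a6d and Lrp1, those closest to Fcgr3 were Gabarap (0.984), Cd44 and Sdcbp, and the gene closest to Fcer1g was Tyrobp (0.982). Fcgr2b was closest to Cndp2 (0.971), Fcgr4 to Litaf (0.969) and Fcgrt to Frmd4a (0.976).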

How the data were processed

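RNA of 4 sorted myeloid populations was sequenced on days 1 and 14 after ACLR, with 2 pooled libraries per group. According to the study's methods, libraries were made with SMART-Seq Stranded, and paired reads were trimmed with Cutadapt, aligned with STAR to mm10 and counted over exons of Gencode M23. The deposited table holds raw counts for 20200 genes, which the authors had not normalized. Groups were taken from the labels. The counts were analysed with edgeR 4.0.16 in R 4.3.3 (TMM scaling, quasi-likelihood test, 1 mean per group, all 16 libraries, 8 residual degrees of freedom). Genes were tested where the mean CPM of at least 1 group was 3 or more, which left 12031, and p-values were adjusted by Benjamini-Hochberg over all of them in each of 22 comparisons (4 over time, 12 between populations, 6 differences of time changes). Calls required a log2 fold change of 1 or more in either direction together with an adjusted p below 0.05. All 6 members were described, with pathway genes by counts over lists, and by name where called (up to 4 of largest change per list) or central to signalling (Tyrobp, B2m, Syk, Lyn, Inpp5d, Ptpn6), and for each member the 3 most correlated genes. The members and lists were chosen with earlier results of these data known. Levels per kilobase and overlaps used Gencode gene models, and promoter sequences came from RefSeq. Same-numbered libraries correlated at 0.0118 to 0.141 in their deviations, with 3 of 12 pairs over 0.1. The numbers were taken as pairs within a day, from the labels and the number of mice in the study, and the fit with them as a block is an alternative. DESeq2 1.42.0, other scalings, filters, a replicate block and leaving out libraries were tried as alternatives. The script was tested on simulated data. Some items covered by these rules are not reported here.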

Additional observations from a re-analysis of the deposited data

Results flagged for a closer look

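The time change of 2 genes differed between populations by a test of the difference itself (interaction term, edgeR). The log2 fold change of Fcgrt from day 1 to day 14 was 1.05 to 1.36 in the 3 populations other than neutrophils and -1.87 in neutrophils, and the differences of log2 fold changes from neutrophils were 3.16 for CD9+ macrophages (adjusted p = 0.018), 3.23 for CX3CR1+ macrophages (adjusted p = 0.013) and 2.92 for F4/80- cells (adjusted p = 0.026). The neutrophil values rest on 31 and 7 counts of Fcgrt on day 1 and 6 and 1 on day 14. Of all tested genes, 8.2%, 8.85% and 7.63% were called in these 3 comparisons. Without the first day 1 or the second day 14 neutrophil library the 3 differences were 1.64 to 2.37, and none was called. Fcgr4 was lower on day 14 in F4/80- cells by more than in neutrophils, with a difference of -1.07 (adjusted p = 0.049). That call was lost in 7 of 8 omissions of a library. It was also lost with scaling by library size only (edgeR, adjusted p = 0.054) and with no filter (edgeR, adjusted p = 0.059).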

How the results depend on the processing

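Of 649 alternative values of called members, 594 kept the call, 55 lost it and 0 changed direction. The 594 include 51 from the main fit with no fold change threshold, where a call cannot be lost. Of 690 values of members not called, 644 stayed so, 34 gained a call and 12 changed sign. Dropping that threshold gave 18 of the 34 gained calls. In the order CD9+, CX3CR1+, F4/80- and neutrophils, 2, 2, 1 and 1 members were called over time. They became 0, 0, 1 and 0 when every group had to pass the filter, which removed Fcgr1 and Fcgrt. Of the 7896 genes tested then, 342, 275, 175 and 770 were called. With no fold change threshold the members were 4, 4, 1 and 2 (17.4%, 12.8%, 6.37% and 28.8% of tested genes). With DESeq2 they were 2, 1, 2 and 2 (1127, 812, 492 and 1779 of 12031 tested genes). F4/80- cells had 3 without neutrophil libraries (394 of 12031 tested genes). In a fit without the CD9+ libraries, chosen after seeing the data, F4/80- cells had 3 (531 of 12031) and neutrophils 2 (1878 of 12031). Leaving out 1 library gave 0 to 2, 0 to 0, 0 to 1 and 0 to 2. With the filter in every group, CD9+ macrophages against F4/80- cells had 1 on day 1, CX3CR1+ macrophages against F4/80- cells 1 on day 1 and 0 on day 14, CX3CR1+ macrophages against neutrophils 3 on both days and F4/80- cells against neutrophils 3 on day 14, and the differences from neutrophils in time change had 0, 0 and 1. With no fold change threshold, CD9+ against CX3CR1+ macrophages had 1 on both days (15.6% and 26.6% of tested genes). CX3CR1+ macrophages against F4/80- cells had 5 and 6 (36.5% and 36.8%). Scaling by library size only gave 1 for CD9+ against CX3CR1+ macrophages on day 1 (1119 of 12031 tested genes). This scaling or no filter gave 1 for the difference in time change of F4/80- cells from neutrophils. Leaving out 1 library gave 0 to 1 for CD9+ against CX3CR1+ macrophages on day 14, 1 to 3 for CX3CR1+ macrophages against F4/80- cells on day 14, and 0 to 1 for the differences in time change of CD9+ macrophages from F4/80- cells and of each population from neutrophils.

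The sign changed with library size only for Fcgr3 in CD9+ against CX3CR1+ macrophages (-0.12) and for Fcer1g (-0.09) and Fcgrt (-0.08) in CD9+ macrophages against F4/80- cells, all on day 1. Leaving out 1 library moved Fcer1g over time between -0.43 and 0.03 in CD9+ and between -0.26 and 0.03 in CX3CR1+ macrophages, Fcgr4 between -0.48 and 0.02 in CD9+ macrophages and between -0.48 and 0.21 in neutrophils, and Fcgr1 in CD9+ against CX3CR1+ macrophages on day 14 between -1.41 and 0.14. In CD9+ macrophages against F4/80- cells the range of Fcer1g was -0.1 to 0.37 on day 1, or -0.1 to 0.2 for day 14, that of Fcgr4 on day 1 was -0.04 to 0.47 and that of Fcgrt -0.18 to 0.49. Apart from the removed genes, the cause of these changes was not tested. A lone library left in a group was assumed to vary like the others. The replicate block (same-numbered libraries of a day as pairs) changed no call of a member and moved no count of called members by over 1.5 times, and Fcgr1 over time in CD9+ macrophages was -1.99 with it. Under 10 counts of Fcgr1 and Fcgrt in day 14 neutrophil libraries limit every fold against them.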
